A study of Mus musculus with 20 samples.

Results

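Bone marrow cells of the blood vessel lining were compared between mice 14 days after a single exposure to whole-body irradiation and mice that were not irradiated. The comparison uses 10 of the 20 arrays of the study, chosen by title: 5 arrays titled for day 14 and 5 titled as non-irradiated, across 18193 genes. Both groups were adult C57/Bl6 mice of 8 to 10 weeks, with no transgene or other allele named, and the material of every array is given as VE-cadherin+ endothelial cells of the bone marrow. The day 14 group had received 5 Gy, and the controls are titled as non-irradiated. The labels number 5 biological replicates in each group and do not say whether 1 replicate is 1 animal or a pool, so that the p-values measure the spread between these samples, part of which may be technical. Total RNA was amplified before labelling with biotin and hybridized to single-colour arrays. The remaining 10 arrays (6 hours and 24 hours after the same dose) entered the fit for the estimate of spread and are given beside day 14 where they bear on it.

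Marrow vessels are of several kinds. Arterioles and the capillaries that follow them bring blood in, and wide, leaky sinusoids drain it and let newly made blood cells pass into the circulation. The endothelial lining of these vessels, with the stromal cells around it, makes factors such as Cxcl12 and Kit ligand that hold and feed blood-forming stem cells. Irradiation damages DNA, activates the transcription factor p53, empties the marrow of dividing blood cells and dilates the sinusoids, and the marrow is refilled from surviving stem cells over the following weeks.

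The values are linear probe set signals whose mean, after trimming the highest and lowest 2%, was 500 on every array, and on that scale the arrays of the compared groups had different distributions. The median signal of an array was 177 ± 10.1 (SD, n = 5) in non-irradiated arrays and 94.4 ± 8.38 at day 14, while the 90th percentile was 1566 ± 18.5 and 1756 ± 13.4. No array of one group reached the range of the other in either measure (exact permutation test, two-sided, p = 0.00794, the smallest that 5 against 5 arrays allow). The bacterial hybridization controls were lower at day 14 (mean log2 signal 12.14 ± 0.16 against 12.77 ± 0.08), as was the log2 signal of the 3' probe set of Gapdh over its 5' one, a measure of RNA integrity and amplification (0.89 ± 0.12 against 1.33 ± 0.04), each with the same exact p. The same measure for Actb did not go that way (-0.05 ± 0.04 at day 14 against -0.10 ± 0.04, exact p = 0.0794). The share of probe sets above the arrays' own background, the 95th percentile of 27 probe sets for absent bacterial genes, was 73.4% ± 2.36 at day 14 and 79.3% ± 2.33 without irradiation. Across genes the median correlation was 0.939 between non-irradiated arrays, 0.959 between day 14 arrays and 0.931 between the groups. Whether these array differences moved single genes was not tested, so each direction below was read on 3 scales: the deposited scale, after quantile normalization, and after centring each array on its own median.

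Day 14 marrow endothelial preparations differed from non-irradiated ones in 4082 of 18193 genes on the deposited scale (limma, Benjamini-Hochberg adjusted p under 0.05). Of these 1723 were higher at day 14 (9.47% of all genes) and 2359 were lower (13.0%). After quantile normalization 1781 were higher (9.79%) and 1143 lower (6.28%), so the share of calls that were higher went from 42.2% to 60.9%, and it was 94.7% with centred arrays. The median log2 change of all genes was -0.18, 0.19 and 0.72 on the 3 scales in that order. Centring added 0.90 to every log2 change, and any fall smaller than that has the opposite sign there. Called in the same direction on all 3 scales were 1006 higher genes (5.53%) and 336 lower ones (1.85%). The same 1006 genes were higher on both the deposited and the quantile scale, while 936 were lower on both. Centring thus removed falls but no rises, so counts on all 3 scales are stricter for falls than for rises. These 1342 genes carry the directions described below, and the word "called" without a scale refers to the deposited scale. The scales lay furthest apart for dim genes. In signal class 3 of 10, counted from the dimmest, the median log2 change was -0.82 on the deposited and 0.21 on the quantile scale, and in the brightest class 0.19 and 0.06. Rises were called more often among bright genes: 619 of 1820 were higher in the brightest class and 34 of 1820 in class 5. List counts below are to be read against the shares of all genes. On the deposited scale these were 9.47% higher and 13.0% lower, and on all 3 scales 5.53% and 1.85%. Lists were not tested against genes of like signal.

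**Figure D1:**
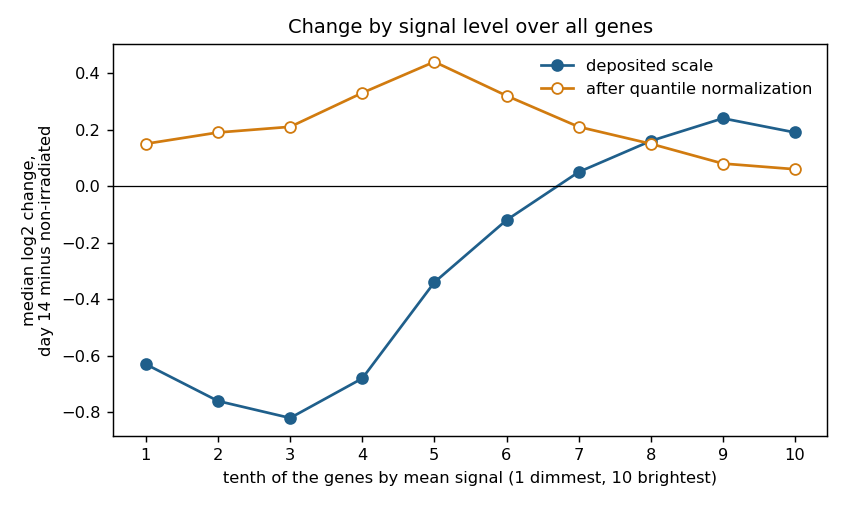
Median log2 change (day 14 minus non-irradiated, vertical axis) over genes sorted into 10 equal classes by mean signal (horizontal axis), filled points on the deposited scale and open points after quantile normalization. On the deposited scale the 4 dimmest classes lie between -0.63 and -0.82 and the 4 brightest above 0, while on the quantile scale all classes lie above 0.

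Most pan-endothelial marker genes were lower at day 14 on the deposited and quantile scales. Of 32 measured pan-endothelial markers 21 were lower and 1 was higher on the deposited scale, with the same counts after quantile normalization, and on all 3 scales 9 were lower (28.1%, against 1.85% of all genes) and 1 higher. Their median log2 change was -0.81, and -0.62 on the quantile scale. With centred arrays it was 0.086, where the median of all genes was 0.72. The summed signal of the list was 34761 to 37263 in non-irradiated arrays and 18573 to 19777 at day 14. Cdh5, the gene of VE-cadherin for which the cells are labelled positive, read 3312, 2829, 3961, 3115 and 2709.8 in the 5 non-irradiated arrays and 1298, 1144, 1094, 1172 and 1757 at day 14. Every day 14 array lay below every non-irradiated one. The change was -1.31 ± 0.12 (log2 ± SE, adjusted p = 2.66e-08), a 2.48-fold fall. Flt1, the decoy receptor for vascular endothelial growth factor, went from 2092 ± 171 to 478 ± 34.5 (mean ± SD, n = 5), and Pecam1, an adhesion protein of endothelial contacts, from 1295 ± 228 to 426 ± 64.8. Their log2 changes were -2.13 ± 0.11 (adjusted p = 4.52e-13) and -1.60 ± 0.18 (3.34e-07). In these samples fewer cells of a type and less RNA per cell cannot be told apart.

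Some genes of arterial vessels were among the deepest endothelial falls. Sox17, a transcription factor of arterial identity, read 861, 1121, 927, 908 and 680.0 without irradiation and 104, 72.7, 134, 62.9 and 69.7 at day 14. The groups stood far apart, and the fall was 10.3-fold (log2 change -3.37 ± 0.24, adjusted p = 1.53e-10; -2.83 on the quantile scale). Sox17 is counted among the pan-endothelial markers too. Of 20 arterial markers 8 were lower and 1 was higher on the deposited scale, and 7 were lower on all 3 scales (35%). The median log2 change of the list was -0.79, and -0.36 on the quantile scale, where the pan-endothelial median was -0.62. With centred arrays the arterial median was 0.11. The summed signal of the arterial list was 27406 to 30461 without irradiation and 24525 to 26519 at day 14. Podxl, a sialomucin of the luminal surface, went from 1152 ± 229 to 261 ± 54.6 (-2.14 ± 0.21). The Notch ligand Jag2 went from 477 ± 99.1 to 103 ± 40.7 (-2.26 ± 0.30) and the secreted semaphorin Sema3g from 537 ± 119 to 157 ± 44.6 (-1.80 ± 0.27). Members picked after their values were seen did not pass on the deposited scale: Cxcr4, the receptor of Cxcl12, changed by 0.0035, Hey1, a Notch target, by -0.32 and Nrp1, a coreceptor, by -0.21 (called lower after quantile normalization, -0.41).

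Capillary genes that take up lipid from the blood were lower by large amounts. Of 20 such genes 13 were lower and 1 was higher on both the deposited and the quantile scale, 9 and 1 on all 3 scales (45% and 5%), and the median log2 change was -1.24 (-1.18 on the quantile scale). Car4, a carbonic anhydrase anchored on the capillary surface, read 666, 504, 589, 1033 and 410.1 before and 180.4, 27.5, 26.8, 81.4 and 25.0 at day 14, where 4 of 5 arrays were above background. The spread at day 14 was wide, but no array overlapped (12.2-fold lower, log2 change -3.61 ± 0.41, adjusted p = 5.79e-07). Timp4, an inhibitor of matrix metalloproteases, read 3492, 4363, 3916, 3548 and 3323 against 573, 646, 596, 491 and 449. That fall was 6.78-fold with a small error (-2.76 ± 0.12, adjusted p = 2.1e-14). Tcf15, a transcription factor that drives fatty acid uptake in capillaries, changed by -2.41 ± 0.23 and the caveolar protein Cav2 by -2.39 ± 0.21. The next 4 members were picked after their values were seen because they are the best known of the list: Cav1 went from 4079.7 ± 488 to 900.1 ± 144, Gpihbp1, the capillary anchor of lipoprotein lipase, from 1623 ± 287 to 463 ± 63.6, Cd36, a fatty acid transporter, from 3821 ± 608 to 1249 ± 59.7, and the fatty acid binding protein Fabp4 from 13354 ± 529.7 to 7760.2 ± 798. Those 4 falls passed on the deposited and quantile scales, and that of Fabp4 was 0.11 with centred arrays. Pparg, the fatty acid sensing nuclear receptor, was the 1 member that rose (0.63 ± 0.16, adjusted p = 0.00597).

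Sinusoidal genes did not share these falls. Of 18 sinusoidal markers 1, Abcg2, passed the test on the deposited scale, where it was higher, 2 were lower and 2 higher after quantile normalization, and the median log2 change was -0.11 (-0.082 on the quantile scale). Their summed signal was 21581 to 22902 without irradiation and 21862 to 22719 at day 14. Stab2, a scavenger receptor of sinusoids, read 1128, 1043, 892, 860.4 and 950.0 in non-irradiated arrays and 623, 657, 1019, 817 and 1071 at day 14. The groups overlapped and the change of -0.25 ± 0.15 did not pass (adjusted p = 0.239), though it read 0.65 with centred arrays. Flt4, a growth factor receptor of sinusoids and lymphatics, went from 2447 ± 415 to 2249.5 ± 159 (-0.11 ± 0.10) and Vcam1, an adhesion molecule for leukocytes, from 6161 ± 345 to 6117 ± 432 (-0.011 ± 0.066). Both were picked after their values were seen, and neither passed on the deposited scale, while Flt4 was called lower after quantile normalization (-0.31). Vcam1 is also on the stromal and the macrophage lists used here and makes up a large part of the summed signal. That sum therefore need not come from endothelium alone. Abcg2, an efflux transporter, rose from 1195 ± 165 to 2036 ± 148 (0.78 ± 0.16, adjusted p = 0.00127), and Plvap, the diaphragm protein of fenestrated vessels, from 453 ± 101 to 693 ± 103 (0.63 ± 0.17, adjusted p = 0.0105), each with no overlap between groups. Abcg2 changed by -0.044 at 6 hours and -0.42 at 24 hours, neither called, where the sinusoidal list medians were 1.16 and 0.83. Which cells its day 14 rise came from was not tested. Plvap, picked after its values were seen, is the 1 pan-endothelial marker that was called higher. The sinusoidal and arterial lists were not tested against each other.

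**Figure D2:**
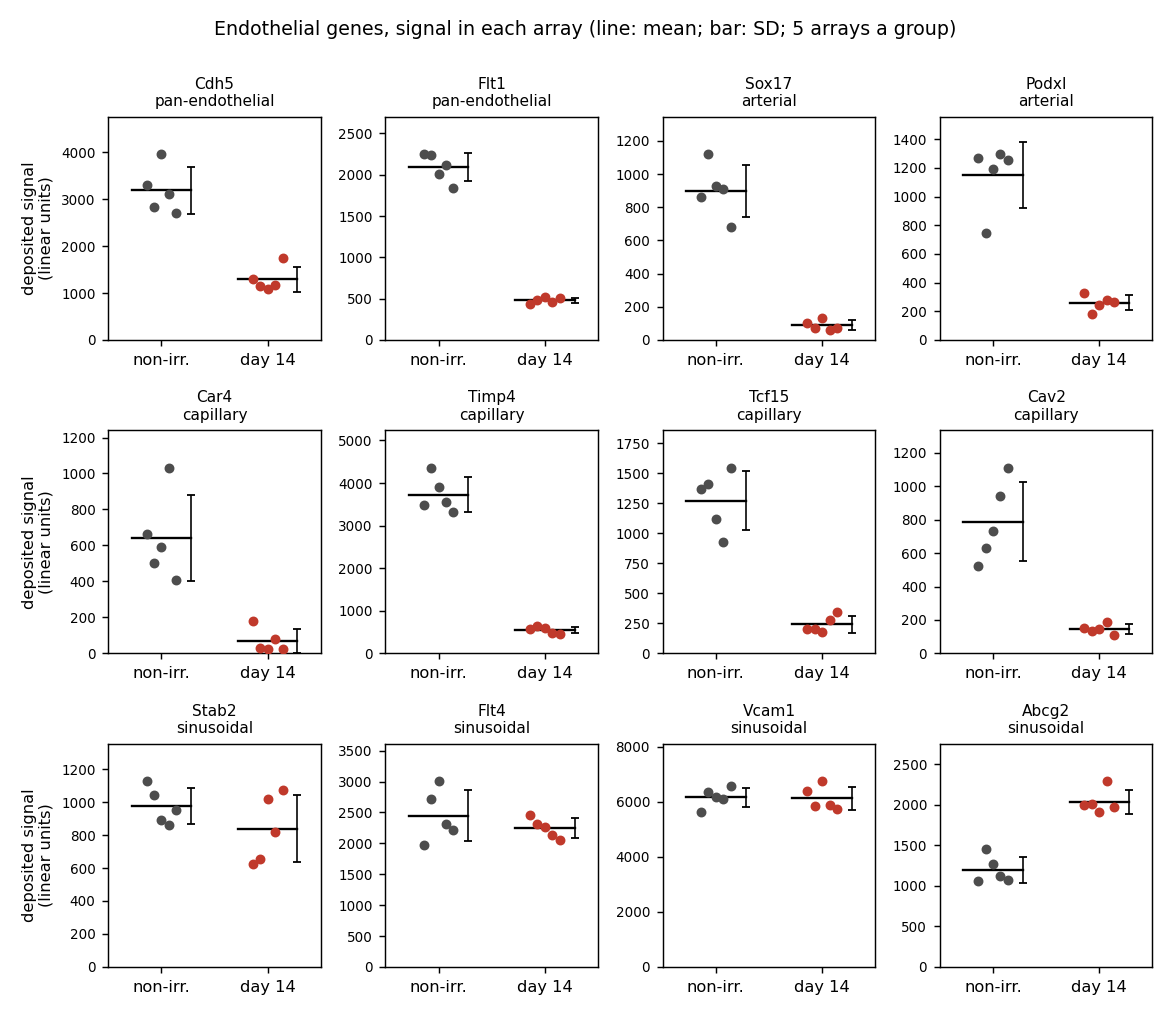
Deposited signal (vertical axis, linear) of 12 endothelial genes in each of the 5 non-irradiated (grey) and 5 day 14 arrays (red), with the mean as a line and the SD as a bar. For Cdh5, Flt1, Sox17, Podxl, Car4, Timp4, Tcf15 and Cav2 all day 14 points lie below all non-irradiated points, for Stab2, Flt4 and Vcam1 the points overlap, and for Abcg2 they lie above.

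Junctions, Notch signalling and flow-responsive genes followed the arterial and capillary pattern in part. Among 18 junction genes 7 were lower and 1 was higher on the deposited scale, and 4 were lower on all 3 scales: Cdh5, Pecam1, Esam (1232 ± 135 to 397 ± 33.0) and Jam2 (660.1 ± 34.1 to 195 ± 21.1), all of them adhesion proteins between endothelial cells. Of 19 Notch pathway genes 9 were lower and 1 higher, and on all 3 scales Jag2 and the endothelial receptor Notch4 were lower (-1.81 ± 0.27) and Lfng, a sugar transferase that modifies Notch, was higher (0.65 ± 0.17). Among 20 genes of coagulation and vessel tone 8 were lower and 2 higher. Nos3, the endothelial nitric oxide synthase, read 299, 273, 266, 248 and 319 without irradiation and 38.2, 16.9, 35.6, 63.4 and 50.9 at day 14. That was a 7.28-fold fall (-2.86 ± 0.32, adjusted p = 4.3e-07), with 4 of 5 day 14 arrays above background. Klf2 and Klf4, transcription factors induced by laminar flow that in turn induce Nos3, went from 2807 ± 379 to 1039 ± 168 and from 5384 ± 186 to 1976 ± 178. Both changed by about the same amount (-1.44 ± 0.13 and -1.45 ± 0.084). Ednrb, an endothelin receptor, fell by 1.91 ± 0.28 on the log2 scale. Vwf, the clotting factor stored in endothelial cells and platelets, changed by -0.80 ± 0.17 and passed on the deposited and quantile scales, but read 0.10 with centred arrays. Procr, the protein C receptor, and Plau, the urokinase gene, were the 2 members that were higher (1.08 ± 0.30 and 1.37 ± 0.31); Plau was picked after its values were seen.

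Receptors and ligands of vessel growth were lower more often than higher. Of 27 genes of the VEGF, angiopoietin and sprouting list 10 were lower and 1 was higher on the deposited scale. On all 3 scales 3 were lower and 1 was higher (11.1% and 3.7%, against 1.85% and 5.53% of all genes). Kdr, the main signalling receptor for vascular endothelial growth factor, went from 1961 ± 172 to 927 ± 108 (-1.08 ± 0.16, adjusted p = 2.83e-05), with the fall reduced to -0.18 and not passing when arrays were centred. Tie1, an endothelial receptor kinase, changed by -1.70 ± 0.24 and Pdgfb, the growth factor with which endothelium recruits pericytes, by -1.78 ± 0.32. Apln, a peptide of sprouting tips, was higher at a low signal (41.3 ± 37.4 to 93.5 ± 10.9; 1.63 ± 0.45), with overlap between the groups on the deposited scale. Itga6, a laminin receptor subunit, and Nes, an intermediate filament gene of arteriolar endothelium and some stromal cells, also fell on all 3 scales (-1.27 ± 0.12 and -1.98 ± 0.22).

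Inducible heat shock genes were higher at day 14. Of 26 genes of the heat shock and unfolded protein list 14 were higher and 2 lower on the deposited scale, and 11 and 1 on all 3 scales (42.3% higher, against 5.53% of all genes). The list's median log2 change was 0.25 (0.26 on the quantile scale), against -0.18 and 0.19 for all genes. Hspa1a and Hspa1b encode the inducible Hsp70 chaperones, which refold damaged proteins, and Hspb1 encodes a small chaperone. Hspa1a read 879.5, 754, 1327, 1255 and 1149.6 in non-irradiated arrays and 6139, 5700.1, 6044, 5759 and 5930.0 at day 14. The day 14 arrays were tightly grouped and far above the others (5.63-fold, log2 change 2.49 ± 0.16, adjusted p = 1.94e-11). Hspa1b went from 2422 ± 397 to 11494 ± 743 (2.26 ± 0.15) and Hspb1 from 1259.7 ± 207 to 3104 ± 131 (1.32 ± 0.13). Because Hspa1a and Hspa1b are near-identical copies, a probe set of one may read transcripts of both. Constitutive members moved little: Hsp90aa1 changed by 0.086 and Hspa5, the chaperone of the endoplasmic reticulum, by 0.021, neither past the threshold on the deposited scale, though Hsp90aa1 was called higher after quantile normalization (0.18); both were picked after their values were seen. Atf3, a stress transcription factor, was the 1 member that fell on all 3 scales (-1.49 ± 0.23, adjusted p = 3.36e-05).

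The promoters of these 3 genes are shown because they carry the binding motif of heat shock factor, written GAANNTTC and searched on both strands (it reads the same on each) in the 250 bases before the start site. The motif occurs in 6.69% of 32851 promoters of that length. Sequences are from RefSeq, build GRCm38.p6, 5' to 3' on the gene's own strand, with the matches in capitals: Hspa1a lies at chr17:34972157-34972406 on the minus strand with its match at -104 from the start, Hspa1b at chr17:34959239-34959488 on the minus strand with its match also at -104, and Hspb1 at chr5:135887669-135887918 on the plus strand with matches at -117 and -97. A match describes the letters only, and factor binding was not measured.
Hspa1a: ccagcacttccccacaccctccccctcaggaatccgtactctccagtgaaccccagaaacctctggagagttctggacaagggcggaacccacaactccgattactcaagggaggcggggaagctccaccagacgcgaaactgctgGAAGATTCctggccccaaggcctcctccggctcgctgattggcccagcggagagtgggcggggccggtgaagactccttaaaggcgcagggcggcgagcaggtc
Hspa1b: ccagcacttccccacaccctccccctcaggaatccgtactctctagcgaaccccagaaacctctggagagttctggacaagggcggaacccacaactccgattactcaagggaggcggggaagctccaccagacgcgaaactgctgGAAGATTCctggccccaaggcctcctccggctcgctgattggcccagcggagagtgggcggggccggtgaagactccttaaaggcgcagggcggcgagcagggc
Hspb1: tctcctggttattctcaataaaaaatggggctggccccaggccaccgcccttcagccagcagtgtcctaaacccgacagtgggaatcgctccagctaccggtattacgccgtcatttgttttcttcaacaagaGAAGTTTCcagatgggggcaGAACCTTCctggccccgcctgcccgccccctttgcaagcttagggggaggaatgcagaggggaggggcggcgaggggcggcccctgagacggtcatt

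Interferon-induced genes were higher at day 14. These genes are switched on by interferons through STAT and IRF factors and encode proteins that limit viruses and other intracellular microbes. Of 31 antiviral interferon-stimulated genes 15 were higher and 1 was lower on the deposited scale, 19 were higher after quantile normalization, and 14 were higher on all 3 scales (45.2%). The median log2 change was 0.64 (0.75 on the quantile scale). Ifit1, which binds foreign RNA, read 168, 302, 555, 454 and 255 without irradiation and 1284, 1183, 1437, 1475 and 1165 at day 14. No array overlapped, and the rise was 4.08-fold (2.03 ± 0.22, adjusted p = 2.75e-07). Usp18, a brake on interferon signalling, went from 231 ± 83.5 to 593 ± 59.2 (1.44 ± 0.27), the nucleic acid sensor Zbp1 from 355 ± 23.6 to 925 ± 124 (1.37 ± 0.28) and Bst2, which tethers virus particles to the cell, from 634 ± 92.7 to 1295 ± 103 (1.04 ± 0.12). The 1 member called lower, Mx1, which was picked after its values were seen, had a low signal (163 ± 53.7 to 41.1 ± 26.2) and did not pass after quantile normalization.

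Many genes of the interferon-gamma response were higher too. Of 27 such genes, which encode resistance GTPases, chemokines and parts of antigen presentation, 14 were higher and 1 was lower, with 13 and 1 on all 3 scales (48.1% and 3.7%). Cxcl9, a chemokine for activated T cells, read 609.9, 711, 819, 667 and 578 without irradiation and 2657, 2945, 2435, 2705 and 2899 at day 14. The groups were well apart and the change was 2.02 ± 0.13 (adjusted p = 2.41e-11). The resistance GTPases Iigp1 and Gbp2 rose by 1.63 ± 0.10 and 1.57 ± 0.21, and the chemokine Cxcl10 by 1.67 ± 0.22. Peptide transport and immunoproteasome genes changed less: Tap1 by 0.66 and Psmb9 by 0.96, both past the threshold on all 3 scales and both picked after their values were seen. Class II genes, picked after their values were seen, were not called higher: H2-Aa, H2-Ab1, H2-Eb1 and Cd74 lay between -0.28 and -0.64 on the deposited scale, none past the threshold there or on the quantile scale, and their activator Ciita was lower (65.1 ± 24.0 to 11.9 ± 8.37), with 1 of 5 day 14 arrays above background. Leukocytes also respond to interferon. Of 18 pan-leukocyte markers 7 were lower and 2 higher on the deposited scale and 9 were lower after quantile normalization, with a median log2 change of -0.25 (-0.41 on the quantile scale, 0.65 with centred arrays). Their summed signal was 58829 to 66126 without irradiation and 48719 to 52526 at day 14, and their part in the interferon result was not tested.

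Promoters of 2 of the antiviral genes are shown for the core of the interferon-stimulated response element, GAAANNGAA, or TTCNNTTTC on the other strand, found in 7.13% of the 32851 promoters of 250 bases. Ifit1 (chr19:34640639-34640888, plus strand) holds 3 matches, at -109, -103 and -84, and Bst2 (chr8:71537473-71537722, minus strand) holds 2, at -130 and -124. The matches at -109 and -103, and at -130 and -124, overlap each other and appear as 1 stretch of capitals. The core was not found in the same window of Cmpk2, another antiviral gene that rose (1.21 ± 0.30). The interferon-gamma response genes Cxcl9, Cxcl10 and Gbp2 hold 1 match each to the same core, at -175, -213 and -58. The gamma-activated site TTCNNNGAA (7.02% of promoters) was not found in the window of Cxcl9, Cxcl10 or Gbp2, and Bst2 holds 1 match to it at -136, as well as 1 to the heat shock motif at -161.
Ifit1: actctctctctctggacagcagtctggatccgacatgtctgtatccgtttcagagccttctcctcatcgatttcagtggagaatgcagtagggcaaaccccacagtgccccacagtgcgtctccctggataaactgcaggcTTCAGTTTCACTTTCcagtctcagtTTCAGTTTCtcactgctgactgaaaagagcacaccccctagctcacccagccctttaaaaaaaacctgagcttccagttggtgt
Bst2: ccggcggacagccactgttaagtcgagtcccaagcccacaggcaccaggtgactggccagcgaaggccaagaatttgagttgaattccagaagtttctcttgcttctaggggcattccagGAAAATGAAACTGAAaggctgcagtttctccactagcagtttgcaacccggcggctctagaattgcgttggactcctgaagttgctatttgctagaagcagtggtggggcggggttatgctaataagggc

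**Figure D3:**
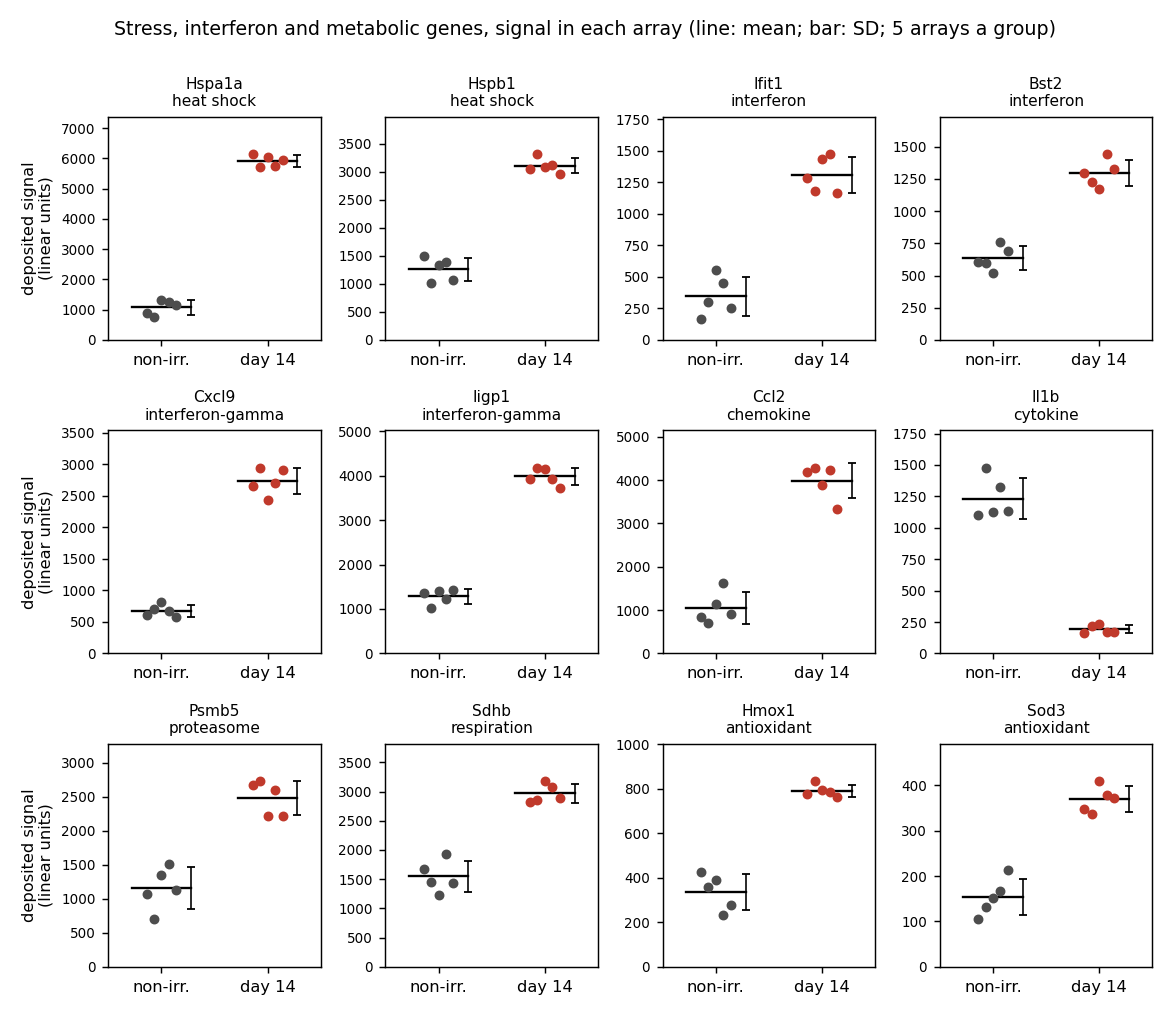
Deposited signal (vertical axis, linear) of 12 stress, interferon, inflammatory and metabolic genes in each of the 5 non-irradiated (grey) and 5 day 14 arrays (red), with the mean as a line and the SD as a bar. Day 14 arrays lie above all non-irradiated arrays for 11 of the 12 genes, and below them for Il1b.

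Inflammatory and early response genes moved in both directions. Of 27 genes of the NF-kB and cytokine list 8 were lower and 2 higher on the deposited scale. On all 3 scales 4 were lower and 2 higher (14.8% and 7.41%, against 1.85% and 5.53% of all genes). Il1b, an inflammatory cytokine of myeloid cells, read 1101, 1479, 1123, 1323 and 1135 without irradiation and 165, 222, 231, 170.0 and 173 at day 14, with no overlap. It fell 6.40-fold (-2.68 ± 0.26, adjusted p = 3.92e-08), and the neutrophil chemokine Cxcl2 fell 3.56-fold (-1.83 ± 0.18). Ccl2, the monocyte chemokine, went the other way: 835, 692, 1142, 1632 and 921 against 4188, 4289, 3885, 4241 and 3341. The rise was 3.97-fold and no array overlapped (1.99 ± 0.17, adjusted p = 5.39e-09). The related Ccl7 was higher at a signal near background (70.6 ± 69.0 to 145 ± 45.5; adjusted p = 0.0435), a call that was lost when any of 8 single arrays was left out. Of 22 immediate early genes 12 were lower and 2 higher on the deposited scale, with 13 and 2 after quantile normalization. On all 3 scales Egr2 and Egr3 were higher and Fosb and Atf3 lower (9.09% each way, against 5.53% and 1.85% of all genes). Egr3 read -0.50 at its other probe set and 0.12 as the mean of its probe sets. Its call was also lost when any of 8 single arrays was left out. The median log2 change of the list was -0.47 (-0.49 on the quantile scale, 0.43 with centred arrays). Fosb, an AP-1 subunit, went from 4323 ± 284 to 911 ± 128 (-2.26 ± 0.097, adjusted p = 1.82e-14), while Egr2, a zinc finger factor, went from 533 ± 60.6 to 1851 ± 200.1 (1.79 ± 0.28, adjusted p = 3.9e-05). Immediate early genes are also known to respond to tissue dissociation, and handling times are not given in the labels. The part of handling in these values was not tested.

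Protein turnover and energy genes rose as broad, small shifts. Of 21 proteasome genes 19 were higher on the deposited scale and 12 on all 3 scales (57.1%), with a median log2 change of 0.57 (0.38 on the quantile scale) and a range of 0.11 to 1.15. Psmb5, a catalytic subunit, read 1071, 701, 1357, 1507 and 1131 before and 2666, 2731, 2212, 2599 and 2215 at day 14. No array overlapped (1.15 ± 0.16, adjusted p = 1.61e-05). Psmb7, another catalytic subunit, changed by 0.94 ± 0.20. Psma5 and Psmb1 also passed (1.03 and 0.82), but not as the mean of all their probe sets, which for Psma5 was -0.074. Of 25 genes of oxidative phosphorylation 17 were higher, 13 of them on all 3 scales (52%), with a median of 0.46 (0.32). Sdhb of complex II went from 1547 ± 269 to 2966 ± 156 (0.95 ± 0.15) and Uqcrfs1 of complex III from 1070.4 ± 98.6 to 1921 ± 223 (0.84 ± 0.17).

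Sterol synthesis and antioxidant genes rose as well. Among 20 genes of sterol and fatty acid synthesis 8 were higher, 7 of them on all 3 scales (35%), with a median of 0.62 (0.67 on the quantile scale). Idi1, an isomerase early in isoprenoid synthesis, went from 1868 ± 317 to 3508 ± 518 (0.92 ± 0.20), and Scd2, a fatty acid desaturase, from 765 ± 320.0 to 1273 ± 167 (0.81 ± 0.19). Fdps and Fdft1, which act later in the sterol pathway, rose by 1.58 ± 0.25 and 1.10 ± 0.24 at their brightest probe sets, while other probe sets of the same genes read as low as -0.49 and -1.90. Of 20 antioxidant and NRF2 target genes 11 were higher and 1 was lower, and 8 were higher on all 3 scales (40%). Hmox1, which degrades haem, read 428, 360.2, 390.0, 235 and 277 against 779, 835, 794, 785 and 763. Those groups did not overlap (1.26 ± 0.17, adjusted p = 7.46e-06). The extracellular and mitochondrial superoxide dismutases Sod3 and Sod2 rose by 1.29 ± 0.31 and 0.95 ± 0.16. Of 19 cytosolic ribosomal proteins 3 were higher and 3 lower on the deposited scale, 8 and 1 after quantile normalization, and 3 were higher on all 3 scales. The median log2 change of the ribosomal list was -0.094 (0.11 on the quantile scale).

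Cell division genes at day 14 were more often higher than lower. Of 29 mitosis genes 10 were higher and 1 was lower on the deposited scale, and 6 were higher on all 3 scales (20.7%), with a median log2 change of 0.45 (0.37 on the quantile scale). In the brightest of 10 signal classes 619 of 1820 genes were higher and 211 lower, and 259 were higher on all 3 scales. Whether the mitosis list or the replication list differs from other bright genes was not tested. Ccnb2, a mitotic cyclin, went from 2398 ± 237 to 4718 ± 301 (0.98 ± 0.15), the survivin gene Birc5 from 3949 ± 489 to 7279.9 ± 697 (0.89 ± 0.14) and Cdk1, the mitotic kinase, from 1662 ± 304 to 2882 ± 248 (0.81 ± 0.16). Mki67, the proliferation antigen, was the 1 lower member: 17731, 17583, 18268, 18391 and 18285 against 15818, 13920.3, 14318, 14031 and 11957. It did not overlap, its change of -0.37 ± 0.077 passed (adjusted p = 0.00112), and it read 0.53 with centred arrays. Aurka, a spindle kinase, rose by 1.05 at 1 probe set and read -1.06 at its other one. Of 34 replication genes 8 were higher and 1 was lower on the deposited scale. On all 3 scales 3 were higher (8.82%, against 5.53% of all genes). Among those 3 were the helicase subunit Mcm2 (0.72 ± 0.14) and the clamp loader subunit Rfc4 (0.78 ± 0.16).

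Targets of p53 were near their non-irradiated level, with a few exceptions. Of 38 measured targets 5 were higher and 6 lower on the deposited scale. On all 3 scales 3 were higher and 1 lower (7.89% and 2.63%, near the 5.53% and 1.85% of all genes). The median log2 change was 0.12 (0.27 on the quantile scale). Cdkn1a, the cell cycle inhibitor p21, read 871, 906, 923, 974 and 1043 without irradiation and 1083, 1157, 1082, 1243 and 1142 at day 14. The day 14 arrays were all higher, by a small amount (0.28 ± 0.096, adjusted p = 0.0405), and the call was lost after quantile normalization (0.22, adjusted p = 0.095) and when any of 6 single arrays was left out. Phlda3, an inhibitor of Akt signalling, kept a larger difference: 349, 339, 373, 436 and 641 against 1018, 916, 801, 994 and 944. It did not overlap and rose 2.24-fold (1.16 ± 0.15, adjusted p = 4.51e-06). Ccng1, a cyclin induced by p53, rose by 0.53 ± 0.10. Mdm2, the ubiquitin ligase that restrains p53, changed by -0.13 ± 0.12 and did not pass (adjusted p = 0.436). Plk3, a stress kinase, was lower on all 3 scales (332 ± 71.3 to 83.5 ± 12.9; -1.97 ± 0.25). Without irradiation as at day 14 the arrays carry signal from dividing and blood-forming cells beside endothelium, and the part of these cells in the proliferation and p53 values was not tested.

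Some red cell precursor genes were higher at day 14. Of 23 erythroid markers 7 were higher on the deposited scale and 4 on all 3 scales (17.4%), with a median of 0.46 (0.33 on the quantile scale). Like the mitosis list, the erythroid list was not set against genes of like signal. The summed signal was 115182 to 121181 without irradiation and 128147 to 154179 at day 14. Alas2, the first enzyme of haem synthesis in red cells, read 2163, 1857, 2092, 1774 and 2160.1 against 5445, 4519, 4706, 4792 and 4412. The groups did not overlap (1.25 ± 0.13, adjusted p = 1.28e-07). Hebp1, a haem binding protein, went from 1298 ± 317 to 3189 ± 208 (1.33 ± 0.36). Icam4, a red cell adhesion protein, rose by 1.15 ± 0.41 with no overlap between groups. Its adjusted p was 0.0462, a call lost whenever any 1 of the 10 arrays was left out. The erythroid transcription factor Klf1 read 5693 ± 288 before and 8353 ± 676 at day 14, with no overlap between groups. Its change did not pass (0.55 ± 0.23, adjusted p = 0.0853). These errors pool the spread of all 4 groups, including 6 and 24 hours, where Klf1 read 430.3 ± 174 and 134 ± 39.2. Icam4 read 73.2 ± 71.2 and 38.1 ± 16.8 at those times.

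Other blood cell markers were divided. Of 19 granulocyte markers 9 were lower and 3 higher on the deposited scale. On all 3 scales 1 was lower and 3 were higher (5.26% and 15.8%, against 1.85% and 5.53% of all genes). The 3 that rose were the proteases Prtn3 (0.85 ± 0.12) and Ctsg (0.52 ± 0.10) and the promyelocyte membrane protein Ms4a3 (0.60 ± 0.14). Mpo, the myeloperoxidase of primary granules, picked after its values were seen, went from 11860.2 ± 494 to 10690.3 ± 1072 and did not pass (-0.15 ± 0.073, adjusted p = 0.13). Csf3r, the receptor for granulocyte colony-stimulating factor, fell from 947 ± 99.1 to 297 ± 88.4 (-1.73 ± 0.24, adjusted p = 9.98e-06). Ptprc, the leukocyte antigen CD45, went from 4785 ± 417 to 2726 ± 182 (-0.81 ± 0.11) with no overlap, and read 0.089 with centred arrays. Of 25 stem and progenitor cell markers 7 were lower and 3 higher on the deposited scale. On all 3 scales 12% were lower and 8% higher, against 1.85% and 5.53% of all genes. The lower ones were Meis1, a homeobox factor of stem cells, Fgd5, shared by stem cells and endothelium, and Esam. Procr and Tal1, a transcription factor of blood stem cells and red cell precursors, were higher on all 3 scales (1.08 ± 0.30 and 0.86 ± 0.22); Tal1 was picked after its values were seen. Meis1 read 249, 277, 224, 215 and 203 without irradiation and 6.56, 27.9, 38.4, 33.2 and 94.1 at day 14, where 4 of 5 arrays were above background. That was a 7.55-fold fall with wide spread (-2.92 ± 0.47, adjusted p = 7.15e-05), and its other 2 probe sets read -1.44 and -0.71, so its size depends on the probe set. At most 1 member of each remaining blood cell list was called on all 3 scales, a share near or below the 5.53% of all genes called higher. Bst2 was higher among 14 dendritic cell markers (7.14%). Nkg7, a cytotoxic granule protein, was higher among 19 T and NK cell markers (5.26%, log2 change 0.98 ± 0.20). C1qc was higher among 25 monocyte and macrophage markers (4%) at a signal near background, with 2 of 5 non-irradiated arrays above it. C1qc was picked after its values were seen.

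Stromal and niche genes moved in both directions, with 1 or 2 of each list called each way on all 3 scales. Of 31 niche and angiocrine factors 3 were higher and 7 lower on the deposited scale and 6 and 3 after quantile normalization. On all 3 scales Fgf23 was higher and Jag2 lower (3.23% each, against 5.53% and 1.85% of all genes). Leptin receptor, Lepr, which marks the stromal cells around sinusoids, read 7149.8, 7972, 7917, 8539.5 and 7876 against 7082, 7565, 7487, 7027 and 7410.0. These values overlapped (-0.11 ± 0.062, adjusted p = 0.218; 0.79 with centred arrays). Kitl, the Kit ligand, changed by 0.0077 ± 0.099 (adjusted p = 0.966). The chemokine Cxcl12 went from 23988 ± 1363 to 18352 ± 1954 (-0.39 ± 0.088, adjusted p = 0.00228), a difference of -0.019 after quantile normalization and 0.51 with centred arrays. Col1a1, the main collagen of bone, changed by -0.47 ± 0.096 on the deposited and -0.14 on the quantile scale. Adipoq, the fat cell hormone gene that marrow stromal cells also express, rose from 4243 ± 351 to 6768 ± 243 (0.68 ± 0.076, adjusted p = 4.52e-07) with no overlap. Of 24 marrow stromal and osteoblast markers 4 were higher and 6 lower on the deposited scale. On all 3 scales 2 were higher and 1 lower (8.33% and 4.17%, against 5.53% and 1.85% of all genes). Their summed signal was 114975 to 123679.8 without irradiation and 100595 to 115962 at day 14. The labels name only endothelial cells, and Cdh5 was present in every array, but Col1a1, Lepr, Alas2 and Ptprc, markers of other lineages, were above background in all 10 arrays too. Acta2, the smooth muscle actin gene, went from 195 ± 79.3 to 164 ± 53.2, with overlap (-0.23 ± 0.28, adjusted p = 0.58; 0.51 on the quantile scale). Fgf23, a phosphate hormone, was higher (25.1 ± 12.9 to 131 ± 44.7, 2.54 ± 0.42), with 1 of 5 non-irradiated arrays above background, so the size of that rise is uncertain.

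**Figure D4:**
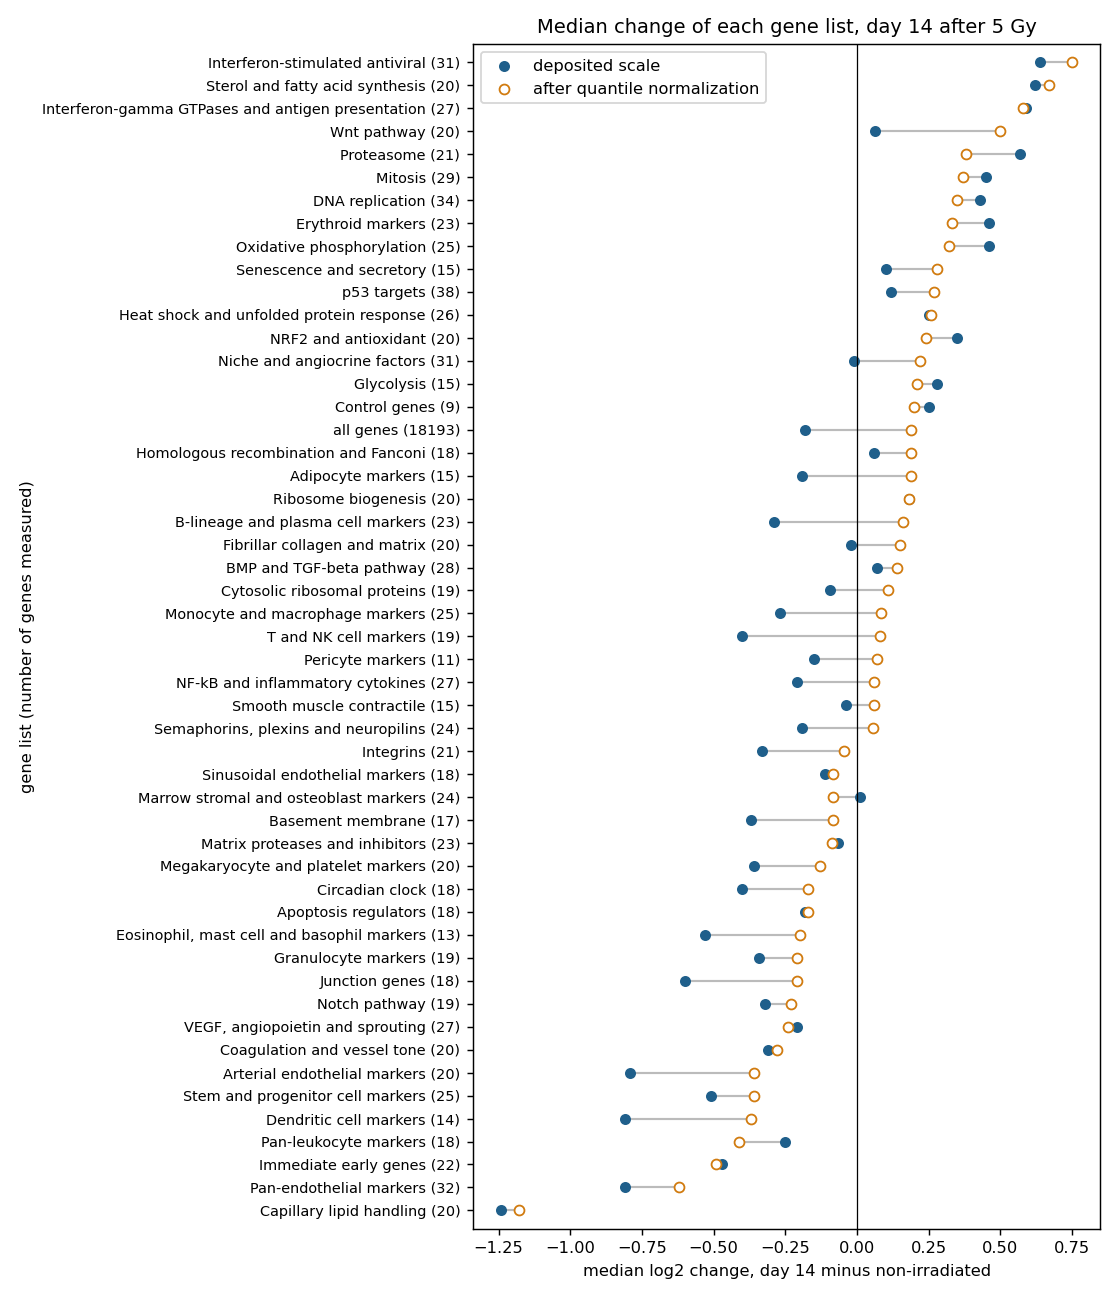
Median log2 change (day 14 minus non-irradiated, horizontal axis) of each gene list and of all genes, filled points on the deposited scale and open points after quantile normalization, with the number of genes measured in brackets. The capillary and pan-endothelial lists lie lowest on the quantile scale (-1.18 and -0.62) and the antiviral interferon list highest (0.75), against 0.19 for all genes.

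The largest single changes, taken among genes called on all 3 scales with no overlap between arrays and a mean signal of at least 500 in the higher group, included genes outside these lists. The 15 largest rises ran from 1.57 to 2.54 on the log2 scale. Beside the heat shock, interferon and chemokine genes they held Rnf128, a ubiquitin ligase (132 ± 76.0 to 697 ± 88.8, 2.54 ± 0.47), Plek2, a cytoskeletal protein of red cell precursors (101 ± 54.8 to 527 ± 118, 2.47 ± 0.63), Apol11b, an apolipoprotein L family member (1278 ± 178 to 5581 ± 430.3, 2.13 ± 0.55), the potassium channel subunit Kcne4 (1.61 ± 0.25) and Ube2l6, which conjugates the interferon-induced modifier ISG15 (1.57 ± 0.23). The 15 largest falls ran from -4.42 to -2.76. They held Sox17 and Car4, and the endothelial genes Heg1, a receptor needed for vessel integrity (601 ± 152 to 73.9 ± 22.1, -3.04 ± 0.27), and C1qtnf9, a secreted C1q family protein (609 ± 90.2 to 67.8 ± 24.2, -3.20 ± 0.32). Ablim3, an actin binding protein, fell 10.8-fold (1592 ± 484 to 142 ± 17.4) and Lims2, a focal adhesion protein, fell 8.47-fold (1376 ± 144 to 173 ± 76.2).

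Some of these falls were uneven between the probe sets of a gene. Usp53 changed by -4.42 ± 0.68 at its brightest probe set (525 ± 62.7 to 50.4 ± 54.7), but only 3 of 5 day 14 arrays, which ran from 2.93 to 122, were above background, so the size and rank of that fall are uncertain. Its other probe sets read -1.22 and -0.80. The kinase gene Yes1 changed by -3.46 ± 0.42 against -1.49 to -0.46 at its others, and Agps, an enzyme of ether lipid synthesis, by -2.91 ± 0.26 against -0.95 to -0.06. Mid1, a ubiquitin ligase, changed by -2.80 ± 0.36 against -0.44 and -0.41. For these genes the size of the fall depends on the probe set. Sox17, Timp4, Car4 and Cav2 read -2.01, -2.50, -2.31 and -2.67 at their other probe sets, so their falls were seen at each probe set named for them.

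Set beside the earlier times, day 14 was on the opposite side of the controls for several groups. All 3 comparisons share the non-irradiated arrays, so values are given side by side and the difference between times was tested directly. From 3186 ± 494 without irradiation, the mean of Cdh5 was 8954 at 6 hours and 4891 at 24 hours, and 1293 ± 270.1 at day 14. Day 14 lay below 6 hours by 2.80 and below 24 hours by 1.94 on the log2 scale (adjusted p = 2.09e-15 and 2.74e-12). The median change of the pan-endothelial list was 1.42 at 6 hours, 0.38 at 24 hours and -0.81 at day 14, and that of the sinusoidal list 1.16, 0.83 and -0.11. Sox17 went from 2177 at 6 hours to 733 at 24 hours and 88.6 ± 29.8 at day 14.

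Dividing and red cell precursor genes ran the other way. The non-irradiated mean of Klf1, 5693 ± 288, compares with 430.3 at 6 hours, 134 at 24 hours and 8353 ± 676 at day 14. The median change of the erythroid list was -2.98, -4.41 and 0.46 at the 3 times, and that of the mitosis list -1.72, -1.72 and 0.45. Hspa1a was called lower at both early times (746 and 505) and higher at day 14, 3.57 above 24 hours on the log2 scale (adjusted p = 2.92e-15). Its near copy Hspa1b was called higher than the controls at 6 hours (log2 change 0.42, adjusted p = 0.0313) and lower at 24 hours (-1.09), while Hspb1 was called higher at both (1.05 and 0.44). Ifit1 peaked at 24 hours (6302) and remained above the controls at day 14 (1309 ± 143), 2.27 below 24 hours (adjusted p = 6.5e-09). Cdkn1a was at 5968 and 5017 at the early times and 1141 ± 66.0 at day 14, and Acta2 was at 7640.1 at 24 hours and 164 ± 53.2 at day 14, which was 5.59 lower on the log2 scale (adjusted p = 2.66e-14).

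**Figure D5:**
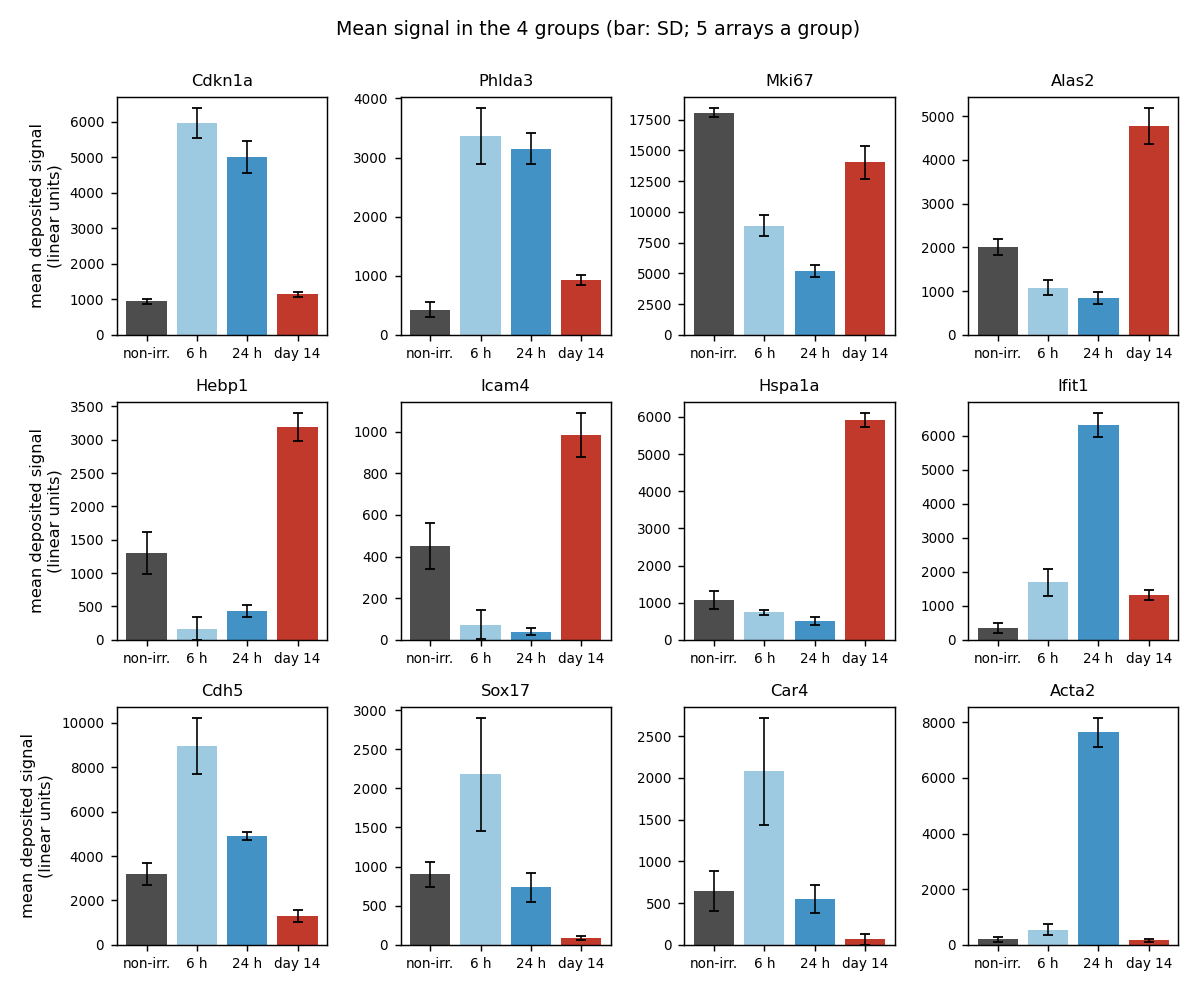
Mean deposited signal (vertical axis, linear) of 12 genes in the non-irradiated, 6-hour, 24-hour and day 14 groups, with the SD over 5 arrays as a bar. Cdkn1a, Phlda3 and Acta2 have their lowest irradiated mean at day 14, Alas2, Hebp1, Icam4 and Hspa1a their highest mean of all groups, and Cdh5, Sox17 and Car4 their lowest.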

How the data were processed

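RNA of VE-cadherin+ marrow cells was measured on 20 single-colour arrays, 5 in each of 4 groups. Deposited values are linear intensities per probe set; the values themselves show each array scaled to a mean of 500 after trimming 2% at each end. The submitters' processing notes name the Affymetrix Expression Console and Transcriptome Analysis Console; the summary method is not given in the sources used here. Of 45101 probe sets 34945 carry 1 gene symbol, 932 several, 9160 none and 64 are controls. The brightest single-symbol probe set stood for each of 18193 genes. Values were taken as log2(signal + 1), so changes of dim genes are understated, and fitted over all 20 arrays as 4 group means in limma 3.58.1 (R 4.3.3; lmFit, eBayes with trend), with Benjamini-Hochberg adjustment over all genes. Python 3.11.15 and matplotlib 3.10.9 were used for summaries and plots. The fit was tested on simulated data.

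The members, 50 gene lists (975 genes measured) and rules were chosen with earlier results of these data known. Genes named were the 15 largest rises and falls with non-overlapping arrays and a signal of at least 500, up to 4 members per list called on all 3 scales, a few fixed markers and the 4 largest of each kind against each earlier time; others are said to be picked later. Replicate numbers did not pair the samples (correlations of same-numbered deviations 0.037, -0.045, 0.019, 0.032 and -0.067). Precision is limited by 5 arrays a group. Alternatives changed the scaling, pseudocount, filter, probe set rule, arrays, variance model, threshold and replicates.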

Additional observations from a re-analysis of the deposited data

Results flagged for a closer look

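Single arrays stood apart from their group in 5 of 116 sets of 5 arrays examined, where chance marks about 1 in 20. Plek2 read 198 in non-irradiated replicate 3. Day 14 replicate 5 was low for Apol11b (4844), high for Cxcl10 (1307) and high in median signal (109). The 3' minus 5' log2 signal of Actb was high, at -0.03, in non-irradiated replicate 1.

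For 24 named genes day 14 and an earlier time were called in opposite directions against the shared controls, and limma's direct contrast between the times is given for the following. On the log2 scale, day 14 was above 6 and 24 hours by 2.99 and 3.57 for Hspa1a, 4.61 and 4.20 for Plek2, and 5.17 and 5.45 for Apol11b. Among genes of red cell precursors the same differences were 4.75 and 2.92 for Hebp1, 4.13 and 4.76 for Icam4, 4.27 and 4.01 for Blvrb, and 2.96 and 4.05 for Stard10. Hspa1b was above 24 hours by 3.35, and Fdps and Ube2l6 were above 6 hours by 2.57 and 2.96. Endothelial genes had the opposite sign: day 14 minus 6 hours was -5.32 for Car4, -4.61 for Sox17, -4.60 for Mcf2l, -3.98 for Ushbp1, -3.02 for Pecam1 and -2.80 for Cdh5, and Cdh5 differed from 24 hours by -1.94.

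Among 10092 probe sets without a single gene name, 169 were higher and 1772 lower at day 14 on both the deposited and the quantile scale.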

How the results depend on the processing

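The direction and size of the gene counts depended on the scaling. Against 1723 higher and 2359 lower genes, centring arrays on their medians gave 8212 and 461, and quantile normalization gave 1143 lower. Higher genes numbered 2909 with only the 2 groups in the fit, 2685 with array weights, 919 at an adjusted p under 0.01 and 215 at a 2-fold change or more. Lower genes numbered 3557 with array weights, 1233 at an adjusted p under 0.01, 1521 without dim genes and 3624 when all probe sets of a gene were averaged. Without any 1 array, 1336 to 1529 were higher and 1813 to 2344 lower. With the replicate number as a block, which does not pair the samples, 1653 were higher and 2246 lower.

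Of 159 named genes 154 kept their call after quantile normalization, 137 with centred arrays, 139 with the mean of probe sets and 151 to 156 without any 1 array. With centred arrays the log2 change turned positive for Rad54l (0.10), Hspg2 (0.10), Lyz2 (0.46), Ighm (0.11), Itgb3 (0.39), Actb (0.49), Mdm2 (0.76), Mki67 (0.53), Vwf (0.10), Stab2 (0.65), Ptprc (0.089), Cxcl12 (0.51), Lepr (0.79), Acta2 (0.67) and Col1a1 (0.43), since centring adds 0.90 to each. After quantile normalization Actb was 0.025, and Acta2 (0.51) and Kitl (-0.21), which were not called, changed sign. With the mean of probe sets it turned negative for Ptp4a3 (-0.51), Aurka (-0.002), Diablo (-0.41), Ccn1 (-0.33), Apcdd1 (-0.25), Dcn (-0.089), Car3 (-0.53), Fdft1 (-0.24), Rps6 (-0.045) and Psma5 (-0.074). The cause was not tested. Arrays with a higher background limit what can be read of dim genes.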

Other observations

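Probe sets with no gene symbol in the platform annotation were lower at day 14 more often than named ones. Of 9160 such probe sets 1696 (18.5%) were lower and 87 (0.950%) higher on both the deposited and the quantile scale, with a median quantile log2 change of -0.45. Of 34945 probe sets with 1 symbol 2382 (6.82%) were lower and 1809 (5.18%) higher, with a median of 0.17. The gap held at like signal: in class 7 of 10 by signal, counted from the dimmest, 57.4% of the unnamed and 8.46% of the named probe sets were lower, and in class 6 45.4% and 9.36%. The difference between the classes was not tested.

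Probe sets of the same gene did not always give the same call. Of the 1006 genes higher on all 3 scales 531 have another probe set, which was called higher for 193 (36.3%) and lower for 34 (6.40%). Of the 336 lower genes 165 have another, called lower for 71 (43.0%) and higher for 1 (0.606%).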
